A study of Mus musculus with 13 samples.

Results

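A set of 42 interferon-stimulated genes was examined in sorted mouse eosinophils. The genes were looked up by symbol in a table of 41743 genes, and all 42 were found. The table held RNA-seq values for 13 libraries in 5 groups of C57BL/6N mice aged 8 to 10 weeks. Eosinophils of WT thymus, WT spleen and WT lung gave 3 libraries each. Thymic eosinophils of Rag-KO mice gave 2 libraries after hamster IgG (Rag-KO + control) and 2 after an antibody to CD3ε (Rag-KO + anti-CD3), with the thymus taken on day 10 after the injection. Rag-KO mice cannot rearrange antigen receptor genes, so their thymocytes stop early, and the anti-CD3 antibody drives such thymocytes to the double-positive stage. The genotype was Rag2-/- in 3 of the 4 Rag-KO libraries. Rag-KO + control replicate 2 was the only Rag1-/- library, so in the data its genotype and that single library cannot be told apart. Siglec-F+ cells were enriched on beads and CD11b+ Siglec-F+ cells were sorted. Enzymes were used to free the cells of thymus and lung but not those of spleen, which was mashed. Where spleen is compared, the organ and the way it was prepared cannot be told apart. Nothing states that replicates of a group came from separate mice, and p-values therefore measure only the spread between these samples.

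Interferons are cytokines that alert cells to infection. Type I interferons act through IFNAR1 and IFNAR2 and the kinases JAK1 and TYK2, and lead to a complex with STAT2 and IRF9 that binds the interferon-stimulated response element in promoters. Type II interferon, or interferon-γ, acts through IFNGR1 and IFNGR2 and leads to binding at the gamma-activated site. The induced genes include sensors of viral nucleic acid, effectors that block viral replication, GTPases that attack intracellular pathogens, the immunoproteasome and the chemokines CXCL9 and CXCL10. In the thymus, type I interferon is known to be made without infection, by medullary epithelial cells among others.

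The promoters of 5 members are shown because the data on these genes recur throughout the results and they span several roles. Each line gives the 250 bases before the RefSeq transcription start, 5′ to 3′ on the strand of the gene, and capitals mark every match to the core of the interferon-stimulated response element, spelled here as GAAA, any 2 bases and GAAA, or TTTC, any 2 bases and TTTC where it lies on the other strand. In GRCm38.p6 they lie at chr4:156200819-156201068 (Isg15, minus strand), chr19:34640639-34640888 (Ifit1, plus strand), chr12:26456453-26456702 (Rsad2, minus strand), chr8:71537473-71537722 (Bst2, minus strand) and chr5:92348890-92349139 (Cxcl10, minus strand).
Isg15: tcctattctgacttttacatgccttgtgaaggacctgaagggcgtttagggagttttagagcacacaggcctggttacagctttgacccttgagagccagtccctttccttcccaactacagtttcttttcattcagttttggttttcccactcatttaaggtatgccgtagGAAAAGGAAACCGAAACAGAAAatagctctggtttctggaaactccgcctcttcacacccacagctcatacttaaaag
Ifit1: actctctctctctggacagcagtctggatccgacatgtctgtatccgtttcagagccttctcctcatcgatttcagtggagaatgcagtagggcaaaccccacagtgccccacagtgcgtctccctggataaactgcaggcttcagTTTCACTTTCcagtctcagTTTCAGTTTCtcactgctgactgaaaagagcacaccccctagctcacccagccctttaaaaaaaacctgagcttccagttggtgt
Rsad2: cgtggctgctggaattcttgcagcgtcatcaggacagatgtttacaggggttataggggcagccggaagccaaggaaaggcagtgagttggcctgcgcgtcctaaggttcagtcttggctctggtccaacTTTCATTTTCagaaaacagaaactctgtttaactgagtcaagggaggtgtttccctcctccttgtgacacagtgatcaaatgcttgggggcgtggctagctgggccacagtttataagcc
Bst2: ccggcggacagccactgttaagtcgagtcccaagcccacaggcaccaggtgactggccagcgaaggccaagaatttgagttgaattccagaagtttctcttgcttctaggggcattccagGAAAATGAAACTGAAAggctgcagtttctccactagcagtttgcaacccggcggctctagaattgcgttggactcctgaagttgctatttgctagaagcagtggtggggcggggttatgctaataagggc
Cxcl10: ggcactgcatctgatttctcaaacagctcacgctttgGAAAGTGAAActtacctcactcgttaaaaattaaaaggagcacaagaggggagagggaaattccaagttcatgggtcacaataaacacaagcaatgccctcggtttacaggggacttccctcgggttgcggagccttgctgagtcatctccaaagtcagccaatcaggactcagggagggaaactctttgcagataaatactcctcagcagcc
Isg15 held 3 overlapping matches that formed a single run and began 78, 72 and 66 bases before the start. Bst2 held 2 overlapping matches, and Ifit1 held 2 separate matches, both on the other strand. Rsad2 held 1 match, also on the other strand, and Cxcl10 held 1. RefSeq windows of 300 bases (250 before and 50 after the start) were at hand for 32 of the 42 members. This core occurred in 19 of them (59.4%), against 3.99% of 27025 genes with such a window. The core of the gamma-activated site, spelled TTC, any 3 bases and GAA, reads the same on both strands and occurred in 8 members (25.0%), against 9.55% of genes. Both cores were counted separately and can share letters. By role, the response element core was present in 6 of 7 interferon-γ induced GTPases, 4 of 7 IFIT and OAS genes and 0 of 3 antigen processing genes. A match is a run of letters in this window and was not measured as a bound site. The 10 members without a window in the table were Usp18, Dhx58, Zbp1, Oas2, Mx1, Mx2, Rtp4, Parp9, Parp14 and Iigp1.

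Values are RPKM, reads scaled by gene length and library size, and differences are on the log2(RPKM + 1) scale, which understates changes of low genes. Library totals read off the RPKM steps were 4765122 to 6431540 reads. The label was checked first. The eosinophil receptor Ccr3 was between 483 and 1185 RPKM and Siglecf between 73.4 and 466 RPKM in all 13 libraries. The other listed eosinophil genes varied more, with Il5ra from 7.98 RPKM in WT spleen replicate 3 to 100 RPKM. Prg2 ran from 32.9 to 3648 RPKM and Epx from 0.0780 to 340 RPKM, both highest in Rag-KO + control replicate 2. Libraries stood apart before any comparison. WT spleen replicate 3 had 22.03% of its RPKM in mitochondrial genes, against 1.60% to 6.02% elsewhere. The neutrophil list of 6 genes (Ly6g, Mpo, Elane, Camp, Ltf, Ngp) summed to 4732 RPKM in that library, to 2274 in Rag-KO + control replicate 2, to 526 in WT thymus replicate 3 and to 226 in Rag-KO + control replicate 1, against 0.690 to 16.1 in the other 9. The third replicates of WT thymus, spleen and lung and the second of Rag-KO + control (4 libraries) moved jointly away from their group means, and results that rest on them are also given with these 4 left out. The targeted genes gave 0.153 and 0.0240 RPKM for Rag1 in the control libraries and 1.38 and 1.62 RPKM after anti-CD3. Rag2 gave 0.0492 and 0.0925 RPKM in the controls, 0.222 and 0.0511 after anti-CD3 and 0.288 to 0.860 in WT thymus. Which exons were deleted is not given in the sources used here, so these values check nothing.

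The members were expressed at very different levels. The immunoproteasome subunit gene Psmb8 had the highest mean, with a lowest value of 102 RPKM, while Mx2 was at 0 in 11 of 13 libraries. With a filter of at least 1 RPKM in 3 of the 9 WT libraries, 35 members could be tested between organs. With at least 1 RPKM in 2 of all 13 libraries, 38 could be tested in the Rag-KO comparisons. Mx1, Mx2, Iigp1 and Cxcl9 failed both filters, with highest values of 1.78, 0.255, 11.4 and 0.981 RPKM. Ifit2, Ifi44 and Gbp5 failed the WT filter alone. A member that passed only through a group where it was high had to differ, so the counts below describe members tested and not all 42. Ifit2 and Ifi44 passed the second filter only through the Rag1-/- library and 1 other library. The filter thus favoured them in counts that rest on the Rag1-/- library, and without it 36 members could be tested.

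**Figure D1:**
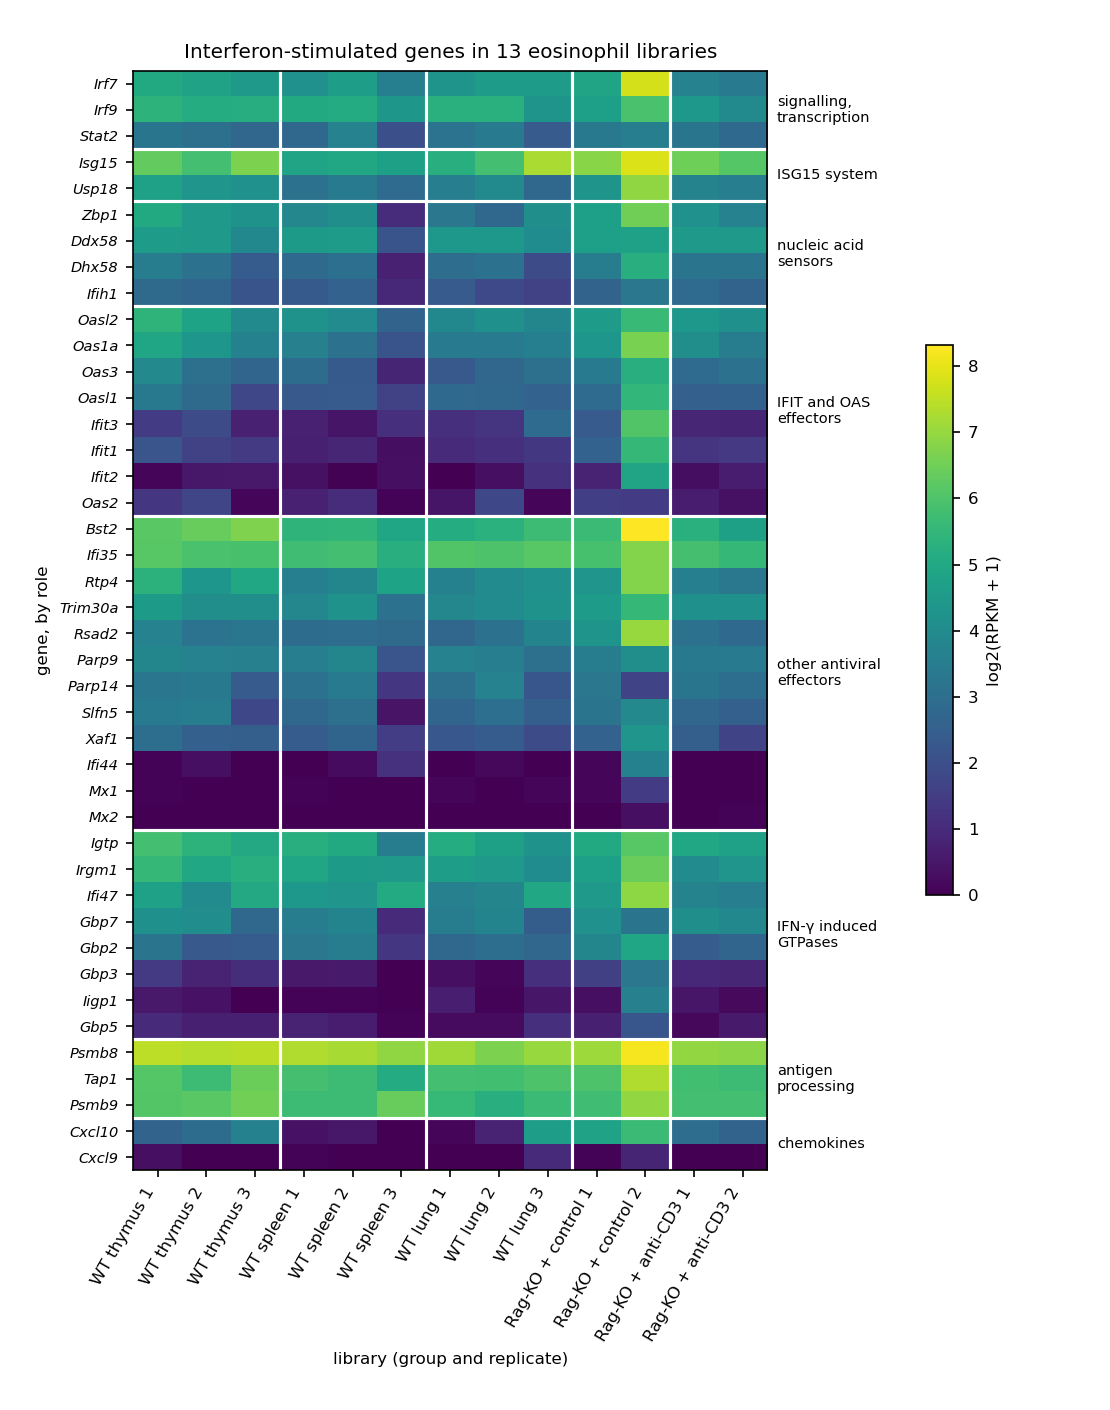
Heat map of all 42 members (rows, grouped by role) in the 13 libraries (columns, by group and replicate), coloured by log2(RPKM + 1). The column of Rag-KO + control replicate 2 is the brightest for 37 of the 42 genes, and that of WT spleen replicate 3 is dark for most of them.

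The most prominent pattern belonged to a single library. Rag-KO + control replicate 2, the Rag1-/- library, was the highest of the 13 for 37 of the 42 members. Among the members tested this held for 34 of 38, where 18.8% of all genes tested had their highest value in that library. The summed RPKM of the 42 members was 2904 there, against 504 to 1085 in the other 12 libraries. The exceptions were Stat2 (highest in WT spleen replicate 2), Parp14 and Oas2 (WT lung replicate 2), Cxcl9 (WT lung replicate 3) and Gbp7 (Rag-KO + control replicate 1). Set against Rag-KO + control replicate 1, 26 of 38 members were more than 2-fold higher, against 7.1% of all genes, and 12 were more than 4-fold higher, against 1.28%. The median log2 difference was 1.41 for the members and 0.06 for all genes. Parp14 and Gbp7 were more than 2-fold lower, a direction seen in 6.29% of genes. In 19 members the level was more than 2-fold above every other library, which held for 127 genes in all (1.3%). This is a difference between 2 libraries and has no replicate check.

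**Figure D2:**
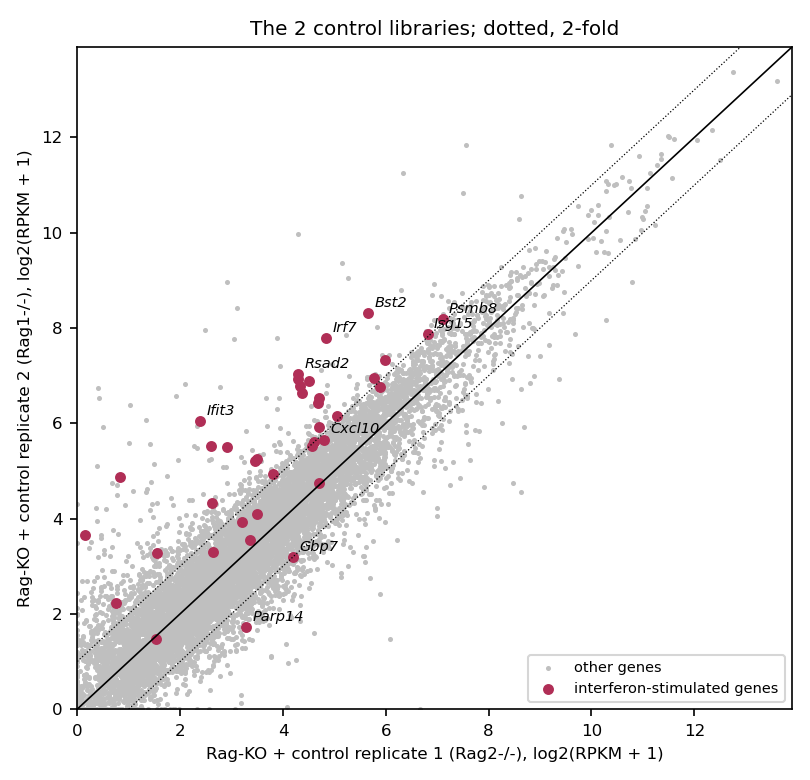
Each gene tested in the 13 libraries, as log2(RPKM + 1) in Rag-KO + control replicate 1 (x axis) and replicate 2 (y axis), with equality as a solid line and 2-fold differences as dotted lines. The members (red) lie mostly above the upper dotted line, with 26 of 38 beyond it and Parp14 and Gbp7 below the lower one.

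Among the signalling genes, Irf7, the transcription factor that amplifies type I interferon production, differed most between libraries. It was at 32.3, 26.5 and 21.1 RPKM in WT thymus, 17.3, 23.5 and 11.1 in WT spleen, 18.9, 22.6 and 23.0 in WT lung, 27.7 and 220 in Rag-KO + control, and 11.7 and 9.77 after anti-CD3. The Rag1-/- library was thus 7.96 times its partner and 6.83 times the next highest library, and the 2 anti-CD3 libraries were among the 3 lowest. Irf9, the DNA-binding partner of STAT2, gave 40.5, 34.2 and 35.1 RPKM in WT thymus, 31.9, 33.5 and 19.9 in WT spleen, 38.1, 37.5 and 18.8 in WT lung, 25.0 and 59.96 in Rag-KO + control, and 20.5 and 14.3 after anti-CD3. WT thymus lay above WT spleen without overlap, and WT lung overlapped both. Stat2, the partner of IRF9, ran only from 3.10 to 11.97 RPKM over the 13 libraries, with 9.30 and 10.8 in the controls.

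Isg15 encodes a ubiquitin-like protein that is attached to other proteins during an interferon response. Its level was 78.0, 56.0 and 101 RPKM in WT thymus, 28.2, 30.7 and 25.7 in WT spleen, 35.7, 55.8 and 152 in WT lung, 112 and 233 in Rag-KO + control, and 87.1 and 69.2 after anti-CD3. The lowest thymic library of any group was above the highest WT spleen library, and WT lung also lay above WT spleen but overlapped WT thymus. Usp18, the protease that removes ISG15 and restrains the type I receptor, was at 26.2, 19.2 and 17.6 RPKM in WT thymus, 7.78, 9.94 and 6.43 in WT spleen, 10.9, 14.8 and 5.88 in WT lung, 18.7 and 120 in Rag-KO + control, and 12.2 and 10.7 after anti-CD3. All 3 WT thymus libraries exceeded all 6 WT spleen and lung libraries.

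The sensors of cytosolic nucleic acid differed among themselves. Ddx58, which encodes the RNA sensor RIG-I, was alike in both controls and low in WT spleen replicate 3, at 22.7, 21.3 and 13.8 RPKM in WT thymus, 22.3, 23.4 and 3.47 in WT spleen, 20.6, 20.8 and 15.5 in WT lung, 25.1 and 25.9 in Rag-KO + control, and 21.6 and 21.2 after anti-CD3. Zbp1, a sensor of Z-form nucleic acid, varied far more: 31.8, 21.5 and 17.96 RPKM in WT thymus, 13.3, 16.7 and 1.07 in WT spleen, 8.88, 6.07 and 16.7 in WT lung, 25.0 and 90.9 in Rag-KO + control, and 17.4 and 11.8 after anti-CD3. Dhx58, which encodes LGP2, a modulator of the RNA sensors, was between 0.696 and 10.3 RPKM in 12 libraries and at 37.1 in the Rag1-/- library. Ifih1, encoding MDA5, ran from 0.882 to 8.77 RPKM. All 4 sensors had their lowest value in WT spleen replicate 3, as did 25 of the 38 members tested and 48% of all genes.

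The IFIT genes encode proteins that bind foreign RNA, and the OAS genes encode enzymes or relatives of enzymes that trigger RNA decay. By the fixed rule the OAS genes with the highest mean are given in full. Oasl2 was at 41.0, 27.4 and 14.7 RPKM in WT thymus, 17.99, 15.04 and 5.27 in WT spleen, 13.7, 17.1 and 13.1 in WT lung, 23.3 and 47.6 in Rag-KO + control, and 20.5 and 17.2 after anti-CD3. Oas1a gave 28.6, 19.4 and 11.6 RPKM in WT thymus, 11.3, 7.66 and 3.45 in WT spleen, 9.46, 9.87 and 11.03 in WT lung, 19.6 and 98.9 in Rag-KO + control, and 16.1 and 10.3 after anti-CD3. Oas3 ran from 0.814 to 14.2 RPKM in 12 libraries and reached 35.8 in the Rag1-/- library. For these 3 genes the Rag1-/- library was the highest and WT thymus replicate 1 the next.

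The IFIT genes were low outside the Rag1-/- library, and they and Rsad2 are given in more detail by a choice made after their values were seen. Ifit1 was at 3.60, 2.15 and 1.64 RPKM in WT thymus, 0.644, 0.875 and 0.237 in WT spleen, 0.978, 1.24 and 1.57 in WT lung, 5.07 and 45.1 in Rag-KO + control, and 1.43 and 1.58 after anti-CD3. These RPKM correspond to 756 reads in the Rag1-/- library and 80 in its partner, and to 3 to 52 reads in the other 11. Ifit3 rested on 719 reads (65.3 RPKM) in the Rag1-/- library, 44 reads (4.24 RPKM) in its partner and 60 reads (6.498 RPKM) in WT lung replicate 3, with 25 reads or fewer in each other library. Ifit2 had 700 reads (28.2 RPKM) against 18 reads (0.772 RPKM) in the partner and at most 26 in any other library. Oasl1 was 6.72 times its partner, and Oas2, at 1.78 RPKM against 1.89 in its partner, was the only member of this role that was not higher. Ifit3 has a near-identical neighbour, Ifit3b, and Oas1a has the paralog Oas1g, and reads may have been split between them.

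Of the other antiviral effectors, Bst2 encodes tetherin, which holds budding virus at the cell surface. It was at 72.0, 82.8 and 102 RPKM in WT thymus, 41.5, 42.6 and 28.4 in WT spleen, 34.8, 38.7 and 50.8 in WT lung, 49.3 and 317 in Rag-KO + control, and 37.9 and 25.2 after anti-CD3. The 3 WT thymus libraries lay above all libraries but the Rag1-/- one. Rtp4, a chaperone that also restrains flaviviruses, was at 39.8, 19.4 and 30.9 RPKM in WT thymus, 11.1, 12.9 and 27.0 in WT spleen, 11.7, 15.2 and 17.3 in WT lung, 19.0 and 109 in Rag-KO + control, and 11.2 and 9.12 after anti-CD3. Ifi35 was between 36.1 and 70.8 RPKM in 12 libraries and at 108 in the Rag1-/- library. Rsad2, which encodes viperin, an enzyme that makes a chain-terminating nucleotide, stayed between 5.75 and 18.7 RPKM in 12 libraries and reached 130 in that library. Trim30a was at 45.3 RPKM against 22.7 in the partner library and Xaf1 at 19.2 against 5.11. Ifi44 was at 11.6 RPKM there, at 0 in 6 libraries and at 1.30 or less in the others. Mx1 was at 1.78 RPKM in the Rag1-/- library and at 0.112 or less elsewhere, near the floor. Parp9 (10.2 and 16.1 RPKM in the controls) and Slfn5 (8.22 and 14.2) differed less. Parp14 went the other way, with 8.78 RPKM in the Rag2-/- control and 2.28 in the Rag1-/- control, the second-lowest value after 1.5 in WT spleen replicate 3.

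**Figure D3:**
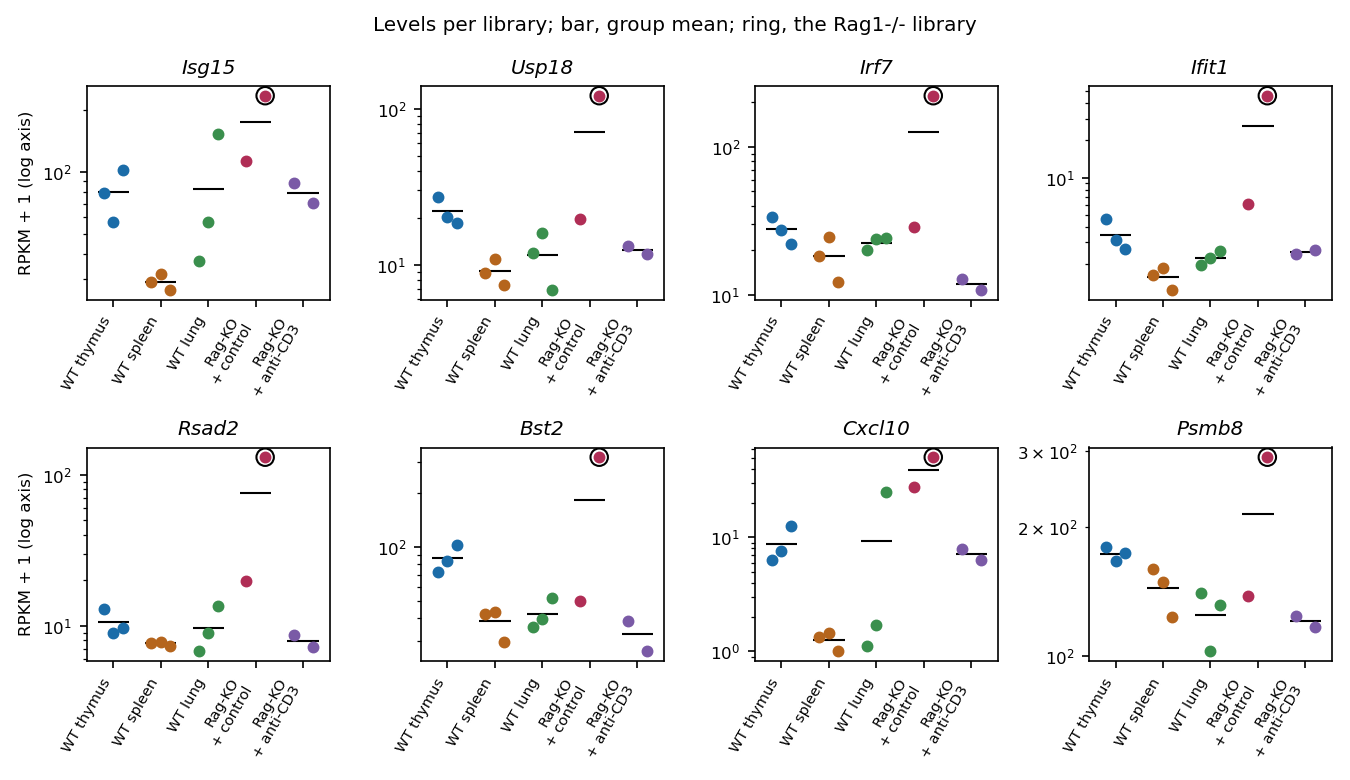
RPKM + 1 of 8 members on log axes, with each point a library, each bar a group mean and a ring around the Rag1-/- library. The WT thymus mean lies above the WT spleen mean for all 8, and the ringed point is the highest in each panel.

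Guanylate-binding proteins and immunity-related GTPases, which interferon-γ induces strongly, attack the vacuoles of intracellular pathogens. Igtp was at 55.8, 40.2 and 31.1 RPKM in WT thymus, 37.1, 31.9 and 10.2 in WT spleen, 34.4, 25.7 and 18.4 in WT lung, 32.2 and 70.3 in Rag-KO + control, and 30.0 and 26.2 after anti-CD3. Irgm1 gave 44.9, 30.5 and 37.1 RPKM in WT thymus, 29.0, 22.1 and 21.7 in WT spleen, 23.7, 21.2 and 15.5 in WT lung, 24.8 and 84.8 in Rag-KO + control, and 15.2 and 19.1 after anti-CD3. Ifi47 was at 26.0, 15.1 and 31.3 RPKM in WT thymus, 20.8, 19.1 and 32.6 in WT spleen, 11.3, 12.8 and 30.9 in WT lung, 21.7 and 118 in Rag-KO + control, and 12.1 and 10.8 after anti-CD3. Irgm1 separated WT thymus from the other organs, whereas Ifi47 did not. Gbp2 was at 13.04 and 29.4 RPKM in the controls and between 1.501 and 10.2 in the other libraries. Gbp3 reached 8.71 RPKM and Gbp5 3.69 in the Rag1-/- library, with no other library above 1.95 and 1.23, and Iigp1 reached 11.4 against at most 0.609. Gbp7 did not share this, at 17.3 RPKM in the Rag2-/- control and 8.12 in the Rag1-/- control. Exons of Igtp overlap those of Irgm2, and exons of Ifi47 overlap those of Olfr56, so their reads may be shared.

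The antigen processing genes were among the most abundant members. Psmb8, an immunoproteasome subunit, was at 178, 165 and 173 RPKM in WT thymus, 159, 148 and 122 in WT spleen, 140, 102 and 131 in WT lung, 137 and 290 in Rag-KO + control, and 123 and 116 after anti-CD3. Psmb9, another subunit, was at 67.2, 71.9 and 92.5 RPKM in WT thymus, 50.9, 50.4 and 81.6 in WT spleen, 46.5, 36.4 and 49.99 in WT lung, 53.4 and 123 in Rag-KO + control, and 55.7 and 56.0 after anti-CD3. Tap1, which pumps peptides into the endoplasmic reticulum, was at 68.3, 51.1 and 85.1 RPKM in WT thymus, 57.1, 51.4 and 33.5 in WT spleen, 55.5, 54.3 and 62.3 in WT lung, 62.5 and 159 in Rag-KO + control, and 54.8 and 51.0 after anti-CD3. All 3 genes were more than 2-fold higher in the Rag1-/- library than in its partner, with ratios of 2.11, 2.30 and 2.55. Tap1 and Psmb9 are neighbours on opposite strands with 212 shared exon bases, and the library kit does not mark the strand.

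Cxcl10, a chemokine for CXCR3-bearing T and NK cells, ranged widely among the WT libraries. It was at 5.33, 6.61 and 11.5 RPKM in WT thymus, 0.338, 0.437 and 0 in WT spleen, 0.114, 0.720 and 23.9 in WT lung, 26.8 and 49.5 in Rag-KO + control, and 6.88 and 5.30 after anti-CD3. Both control libraries, and not the Rag1-/- library alone, lay above the other 11. The same order was found for 8 of the 38 members tested, against 2.9% of all genes: Cxcl10, Trim30a, Rsad2, Ifit1, Gbp3, Gbp2, Dhx58 and Ddx58. WT lung replicate 3 stood apart from its partners. That library also had 152 RPKM of Isg15 and 6.498 of Ifit3, and it was the only library with Ifng, at 1.10 RPKM, beside 6.74 RPKM summed over 4 NK cell markers (0.117 and 0.379 in its partners, but 13.3 in WT spleen replicate 3, where Cxcl10 was at 0). The part of these cells in the result was not tested. Cxcl9, an interferon-γ induced relative, was at 0 in 8 libraries and at no more than 0.981 RPKM.

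In the comparison of WT thymus with WT spleen, which asks how thymic eosinophils differ from those of another organ, members were on the whole higher in the thymus but 0 of 35 passed the test. A call required an adjusted p under 0.05 with limma and a log2 difference above 1 in size, and 1.7% of all genes were called higher and 0.583% lower. At an unadjusted p under 0.05, 8 members were higher and 0 lower, where 9% of all genes were higher and 2.79% lower. These 8 were Bst2, Ifit1, Usp18, Oas1a, Isg15, Cxcl10, Oasl2 and Gbp3. Dunnett comparisons on RPKM gave 3 members (Usp18, Ifit1 and Bst2), with 4.62% of all genes higher by that test. The groups did not overlap for 13 members, all higher in the thymus, against 16.4% of all genes that were higher and 4.56% that were lower. The median log2 difference was 0.61 for the members and 0.25 for all genes. Of the members, 33 of 35 were above 0, against 71.7% of all genes. Quantile or upper-quartile scaling removed the shift of all genes and left member medians of 0.37 and 0.36.

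Bst2 came nearest to the threshold, at 85.7 ± 15.3 RPKM in WT thymus and 37.5 ± 7.91 in WT spleen (SD, n = 3 each), a log2 difference of 1.18 (SE 0.28, limma adjusted p = 0.0662). Usp18 was at 21.0 ± 4.56 against 8.05 ± 1.77 RPKM, with a log2 difference of 1.28 (SE 0.35, limma adjusted p = 0.123), and was the 1 member called with the replicate number as a block (limma adjusted p = 0.0442, with 2.48% of all genes called higher in that fit). For Isg15 the means were 78.3 ± 22.4 and 28.2 ± 2.52 RPKM, with a log2 difference of 1.41 (SE 0.47, limma adjusted p = 0.247). The widest difference was that of Cxcl10, at 7.80 ± 3.23 against 0.258 ± 0.229 RPKM, with a log2 difference of 2.76 (SE 0.95, limma adjusted p = 0.264). Each of the 4 genes was higher in the thymus both in replicates 1 and 2 and in replicate 3. The log2 differences were 0.86 and 1.82 for Bst2, 1.26 and 1.32 for Usp18, 1.14 and 1.93 for Isg15, and 2.32 and 3.64 for Cxcl10. The fit without the 4 libraries that deviated together kept replicates 1 and 2 of each WT organ. There 6 members were called higher, where 3.32% of all genes were: Usp18, Rtp4, Oas1a, Isg15, Ifit3 and Ifit1. Without WT lung replicate 3 alone, whose spread entered the fit, Isg15 and Cxcl10 were called (all genes, 2.29%). Without WT spleen replicate 3 the member median was 0.30, with 0.01 for all genes.

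Against WT lung, WT thymus gave 0 of 35 members called with limma, where 1.91% of all genes were called higher and 1.33% lower. At an unadjusted p under 0.05, 5 members were higher and 0 lower (all genes, 10.9% and 4.07%): Bst2, Irgm1, Usp18, Psmb9 and Rtp4. Dunnett comparisons gave Bst2 alone, 1 of 35 members, with 5.79% of all genes higher by that test. The groups did not overlap for 10 members, all higher in the thymus, beside 22.9% of all genes higher and 7.55% lower, so this count is close to the background. The median log2 difference was 0.44 for the members and 0.20 for all genes. Without WT thymus replicate 1 the medians were 0.20 and 0.19, so the distance from all genes rested on that library. Quantile and upper-quartile scaling gave member medians of 0.24 and 0.22, with 26 and 23 of 35 members above 0. The medians of all genes were then 0.03 and -0.005. Bst2, at 41.4 ± 8.38 RPKM in WT lung (SD, n = 3), differed by 1.03 on the log2 scale (SE 0.28, limma adjusted p = 0.0825), and Irgm1, at 37.5 ± 7.23 against 20.1 ± 4.19 RPKM, by 0.87 (SE 0.27, limma adjusted p = 0.145). Cxcl10 changed direction with the replicate, at a log2 difference of 2.33 in replicates 1 and 2 and -0.998 in replicate 3, and was called higher in the thymus without WT lung replicate 3 (all genes, 1.6%). Isg15 did so too, at 0.56 and -0.59. Without the 4 libraries that deviated together, Zbp1, Rtp4, Oasl2, Oas1a and Bst2 were called higher (all genes, 5.5%). That fit kept replicates 1 and 2 of each WT organ. In replicate 3, thymus and lung were close for Zbp1 (17.96 and 16.7 RPKM), Oas1a (11.6 and 11.03) and Oasl2 (14.7 and 13.1). They were further apart for Rtp4 (30.9 and 17.3) and Bst2 (102 and 50.8). Without WT spleen replicate 3 alone, Bst2 was called higher (all genes, 4.41%).

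WT lung and WT spleen differed least. With limma 0 of 35 members were called (all genes, 0.616% higher and 0.088% lower), and 1 member, Isg15, had an unadjusted p under 0.05, with 2.59% of all genes higher and 3.07% lower at that limit. The groups did not overlap for 4 members that were higher in lung and 1 that was lower, against 4.23% and 6.38% of all genes. Isg15 was at 81.1 ± 62.1 RPKM in lung (SD, n = 3), with a log2 difference of 1.23 (SE 0.47, limma adjusted p = 0.712) that was 0.58 in replicates 1 and 2 and 2.52 in replicate 3. The member median was 0.30, and it was -0.12 without WT spleen replicate 3, so the direction rested on that library, and 0.55 without WT spleen replicate 2. The medians of all genes were 0.07, -0.18 and 0.22 in the same fits, in that order.

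**Figure D4:**
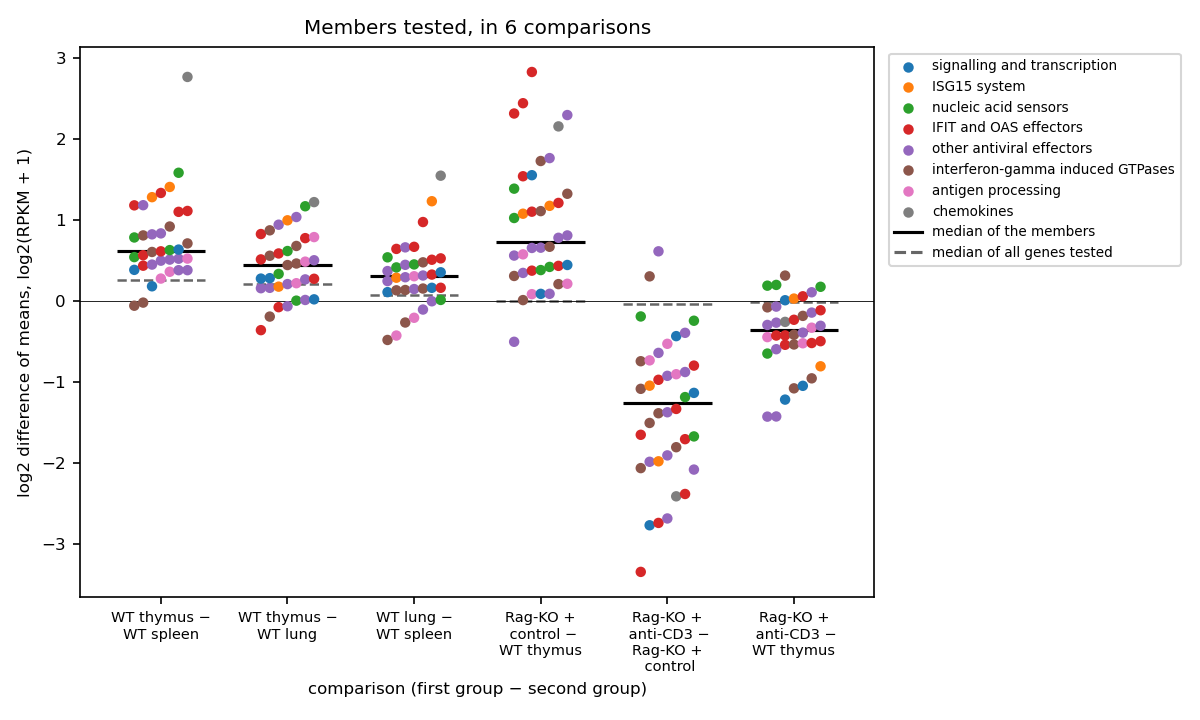
Log2 differences, on the log2(RPKM + 1) scale, of the members tested (points, coloured by role) in the 6 comparisons, with the median of the members as a solid bar and that of all genes tested as a dashed bar. The members lie furthest from all genes in the comparison of Rag-KO + anti-CD3 with Rag-KO + control, at medians of -1.26 and -0.03.

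The Rag-KO comparisons ask how thymic eosinophils differ where later thymocyte stages are lacking, and where these return after anti-CD3. An injection is described for Rag-KO mice alone, so against WT thymus genotype and injection cannot be told apart. For the members the Rag-KO comparisons turn on the 2 control libraries. Against WT thymus, 0 of 38 members were called in Rag-KO + control with limma, where 0.502% of all genes were called higher and 0.584% lower. At an unadjusted p under 0.05, 11 members were higher and 0 lower (all genes, 4.39% and 3.32%). The groups did not overlap for 12 members, all higher in the controls, against 13.4% of all genes higher and 11.6% lower. The median log2 difference was 0.72 for the members and 0.00 for all genes. Of the members, 37 of 38 were above 0, against 50.2% of all genes. Without the Rag1-/- library the member median was 0.09, and without the Rag2-/- control it was 1.62. The medians of all genes were -0.02 and 0.03 in these fits. Each of them leaves a lone control library, which is there assumed to vary like the other groups. Rsad2 had a log2 difference of 2.29 (SE 0.60, limma adjusted p = 0.124), which was 0.88 between the Rag2-/- control and WT thymus replicates 1 and 2. For Irf7 the same values were 1.55 (SE 0.63, limma adjusted p = 0.514) and -0.07, and for Oasl1 1.54 and -0.20.

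For Cxcl10 both control libraries lay above WT thymus. It was at 38.1 ± 16.04 RPKM in the controls (SD, n = 2) against 7.80 ± 3.23 in WT thymus (n = 3), a log2 difference of 2.15 (SE 0.97, limma adjusted p = 0.631). The difference was 2.003 between the Rag2-/- control and WT thymus replicates 1 and 2, and 2.02 between the Rag1-/- control and WT thymus replicate 3. Without the Rag1-/- library it was 1.72. It was called in 3 alternative fits with adjustment, namely without the 4 libraries that deviated together (limma adjusted p = 0.00356; all genes, 2.33%), without WT lung replicate 3 (0.0198; all genes, 0.705%) and with the 7 thymic libraries alone (0.0242; all genes, 1.22%). Each of these 3 fits lacked WT lung replicate 3, where Cxcl10 was at 23.9 RPKM against 0.114 and 0.720 in its partners. No other fit with adjustment called Cxcl10 in this comparison. Leaving out WT spleen replicate 3 led to a call of Gbp2 instead (all genes, 1.22%).

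After anti-CD3 the members were lower than in Rag-KO + control, although 0 of 38 were called with limma (all genes, 0.0512% higher and 0.0819% lower). At an unadjusted p under 0.05, 19 members were lower and 0 higher, where 3.25% of all genes were lower and 1.98% higher. The groups did not overlap for 34 members, all lower after anti-CD3, against 22.3% of all genes lower and 19.2% higher. The median log2 difference was -1.26 for the members and -0.03 for all genes, and the size rested on the Rag1-/- library. Without it the median was -0.52, with 2 of 36 members above 0 and 0 called, and without the Rag2-/- control it was -2.13, with 13 called lower (all genes, 0.699%). Ifit3 had the largest difference, from 34.7 ± 43.1 RPKM to 0.837 ± 0.0489 (SD, n = 2 each), or -3.34 on the log2 scale (SE 0.93, limma adjusted p = 0.320). Irf7 followed at -2.77 (SE 0.69, limma adjusted p = 0.241), Ifit1 at -2.74 (SE 0.68, limma adjusted p = 0.227) and Rsad2 at -2.68 (SE 0.65, limma adjusted p = 0.212). Between the 2 anti-CD3 libraries and the Rag2-/- control alone, the log2 differences were -1.51 for Ifit3, -1.29 for Irf7, -1.28 for Ifit1 and -1.32 for Rsad2. Without the 4 libraries that deviated together, Rsad2, Irf7, Ifit3 and Cxcl10 were called lower (all genes, 0.939%), with the lone control library assumed to vary like the other groups. Parp14 and Gbp7 alone had values above 0, at 0.61 and 0.30, where 46.3% of all genes did.

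Set against WT thymus, the anti-CD3 libraries gave 0 of 38 members called with limma (all genes, 0.0717% higher and 0.0102% lower). At an unadjusted p under 0.05, 4 members were lower and 0 higher (all genes, 1.62% and 1.03%): Rtp4, Irgm1, Irf9 and Bst2. The groups did not overlap for 17 members, all lower after anti-CD3, against 16.2% of all genes lower and 13.1% higher, and the median log2 difference was -0.36 for the members and -0.01 for all genes. Without WT thymus replicate 1 the member median was -0.22. Bst2 was at 31.6 ± 9.004 RPKM (SD, n = 2) against 85.7 ± 15.3 (n = 3), a log2 difference of -1.43 (SE 0.58, limma adjusted p = 1). Rtp4 gave 10.1 ± 1.44 against 30.1 ± 10.2 RPKM, also -1.43 (SE 0.60, limma adjusted p = 1). Isg15 was alike in both, at 78.2 ± 12.6 and 78.3 ± 22.4 RPKM, with a log2 difference of 0.03 (SE 0.52). Without the 4 libraries that deviated together, Rtp4, Irgm1, Irf9, Irf7 and Bst2 were called lower (all genes, 0.683%).

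The genes around the members were taken from a list of 94 ligands, receptors, kinases, inhibitors, sensors and further induced genes, of which 93 were in the table. Interferon genes themselves were at or near 0. Ifnb1 (0.211 RPKM) and Ifna2 (0.307 RPKM) were found in the Rag1-/- library alone, Ifna1 (0.368 RPKM) in WT spleen replicate 3, and Ifnl3 (0.301 RPKM) in Rag-KO + anti-CD3 replicate 2. Values this low rest on few reads, and where interferon was made was not tested. Of the receptor genes, Ifngr1 was between 137 and 227 RPKM, Ifngr2 between 24.3 and 50.4, Ifnar2 between 18.2 and 39.1 and Ifnar1 between 3.97 and 19.2, and 0 of the 5 tested was more than 2-fold higher in the Rag1-/- library than in its partner. Ifngr2, a chain of the interferon-γ receptor, and Il10rb, a chain shared with other cytokine receptors, separated WT thymus (46.3 to 50.4 and 48.5 to 67.1 RPKM) from WT spleen and lung (24.3 to 29.7 and 21.8 to 34.5 RPKM) without overlap. Neither was called: for Ifngr2 the limma adjusted p was 0.091 against spleen and 0.0802 against lung, and for Il10rb it was 0.157 and 0.162.

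The 1 gene of this list that passed the test was Socs3, an inhibitor of cytokine receptor signalling. It was at 16.3, 19.8 and 33.1 RPKM in WT thymus and 4.49, 4.55 and 5.10 in WT spleen, a log2 difference of 2.015 (SE 0.29, limma adjusted p = 0.00871). In WT lung it was at 13.5, 13.4 and 16.2 RPKM, also above WT spleen without overlap. Organ and preparation cannot be told apart where spleen is compared. At an unadjusted p under 0.05, 8 of 66 genes of this list were higher in WT thymus than in WT spleen, close to the 9% of all genes, and the single call stood beside 1.7% of all genes called higher. After anti-CD3, 15 of 74 were lower than in the controls, against 3.25% of all genes. Among the further induced genes, 27 of 46 had their highest value in the Rag1-/- library and 18 were more than 2-fold above its partner, against 18.8% and 7.1% of all genes. Examples are Ifi27l2a at 1813 against 180 RPKM, Cmpk2, which encodes a mitochondrial nucleotide kinase, at 146 against 14.5, and the antiviral membrane protein gene Ifitm3 at 444 against 78.0. Ifitm3 was also at 274 RPKM in WT lung replicate 3 and 184 in WT spleen replicate 3, but at 42.7 in WT thymus replicate 3. Further induced genes such as Trim25 (10.8 against 35.4 RPKM) and Ifi27 (27.7 against 63.0) were lower in the Rag1-/- library than in its partner.

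Some markers of other cells moved with the same library. In Rag-KO + control replicate 2 the list of 9 macrophage and monocyte genes summed to 3061 RPKM, against 500 to 945 in the other 12, and most of it was Ly6c2, at 2440 RPKM against 79.7 in its partner and 6.79 to 349 elsewhere. Adgre1 and Csf1r were present in every library (242 to 707 and 29.99 to 189 RPKM) and cannot mark macrophages among these cells. C1qa, C1qb and C1qc were at 15.2, 21.8 and 15.9 against 4.37, 7.27 and 3.92 in the partner library. Such levels were not particular to the Rag1-/- library. Rag-KO + anti-CD3 replicate 1 had 12.8, 20.1 and 9.96, and WT spleen replicate 3 had 32.9, 4.24 and 19.5. In the neutrophil list, Mpo was at 501 and Elane at 1002 RPKM in the Rag1-/- library, against 6.53 and 18.6 in its partner. Camp was at 260 against 55.7, Ngp at 486 against 122 and Ly6g at 4.20 against 0.357, while Ltf was not higher (21.0 against 22.5). The eosinophil granule genes Prg2 and Epx were at 3648 and 340 RPKM, against 188 and 7.64. WT spleen replicate 3 also held Elane (1000 RPKM) and Camp (3094 RPKM), and there 25 of 38 members, but also 48% of all genes, were at their lowest, beside its 22.03% of mitochondrial RPKM. The 5 plasmacytoid dendritic cell markers summed to 0.476 RPKM in the Rag1-/- library and to 0.229 to 3.52 elsewhere. Its 8 thymocyte and T cell markers summed to 1.96 RPKM, beside 6.11 in the Rag2-/- control, 30.4 and 27.9 after anti-CD3 and 13.7 to 54.8 in WT thymus. The part of these cells in the level of the members was not tested, and in bulk samples more cells of a type and more RNA per cell cannot be told apart.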

How the data were processed

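The authors sorted eosinophils, made libraries with the SMART-seq v4 kit, sequenced them on an Ion Proton instrument and deposited 1 table of RPKM values with 1 column per library. Per the submitters' processing notes they used CLC Genomics Workbench 12 and mm10. Counting settings are not given in the sources used here. RPKM values are not counts, so log2(RPKM + 1) was tested with limma 3.58.1 (trend, Benjamini-Hochberg adjustment over all genes tested) in R 4.3.3. The WT organs were fitted over 9 libraries and 9096 genes (6 residual degrees of freedom), and the Rag-KO comparisons over 13 libraries and 9763 genes (8). Tested on simulated data, the fit recovered 66 of 100 genes changed by 2 on the log2 scale between WT thymus and WT spleen (9115 genes). Between the Rag-KO groups it recovered 58 of 100 (9592 genes). Only the more highly expressed genes were changed there, and libraries were drawn independently, without a joint deviation of 4 libraries. The recovery therefore does not describe low members such as Ifit1 and Ifit2.

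Read totals came from RPKM steps with GENCODE M21 gene lengths. Only 26.2% to 27.5% of values above 0 were whole reads within 0.001, so no count test was run, and reads are given only for members whose values were whole in every library. They carry no molecular identifiers and cover counting error only. In the WT organs, libraries that share a replicate number had deviations from the group mean that correlated by 0.30 to 0.57 in all 9 pairs, and the replicate block is given where it changes a call. Replicates 1 and 2 of different organs also correlated across numbers, by 0.26 to 0.42. Deviations from a group mean sum to 0, so a joint shift of the third replicates produces such correlations by itself. These correlations therefore cannot decide whether the numbers mark a pairing, and the labels give none. The third WT replicates and the second control library (4 libraries) also correlated among themselves (0.27 to 0.57), and no label names a batch. Rag-KO + anti-CD3 libraries were counted with the others by assumption.

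The members, roles and lists were chosen with earlier results of these data known. Values per library are given for up to 3 members of each role with the highest mean, and for genes chosen after their values were seen where so stated; the values given for the remaining members follow from naming each one under its role. The alternatives were other pseudocounts, filters, scalings, no trend, no adjustment, no fold limit, Dunnett comparisons, a replicate block, a term for or omission of the 4 libraries, other libraries in the fit and leaving out each library. The values of 1 gene of the list around the members were left out and are not reported here.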

Additional observations from a re-analysis of the deposited data

How the results depend on the processing

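The count of members called was 0 in each of the 6 comparisons, and 24 alternatives raised it. The share of all genes called in the same fit, in either direction, stands in parentheses. For WT thymus against WT spleen it was 1 with the replicate block (3.33%), 6 without the 4 libraries that deviated together (5.76%), 4 with a term for them (4.49%), 7 without adjustment (6.61%) and 3 with Dunnett comparisons (5.67%). For WT thymus against WT lung it was 5 without the 4 libraries (8.38%), and 1 with a term for them (6.42%), without adjustment (7.77%) or with Dunnett comparisons (8.01%). For WT lung against WT spleen it was 1 without adjustment (3.01%). For Rag-KO + control against WT thymus it was 1 without the 4 libraries (4.36%) or with the 7 thymic libraries alone (2.24%), and 10 without adjustment (5.1%). For Rag-KO + anti-CD3 it was 4 without the 4 libraries (1.75%) and 19 without adjustment (3.64%) against the controls, and 5 (1.4%) and 4 (1.2%) against WT thymus. Leaving out 1 library gave 0 to 2 for WT thymus against WT spleen, 0 to 1 against WT lung, 0 throughout for WT lung against WT spleen, 0 to 10 for the controls against WT thymus, 0 to 13 for anti-CD3 against the controls and 0 throughout against WT thymus, in fits that called 0.936% to 7.29% of all genes where a member was called. The other alternatives (pseudocount 0.1, no filter or one at RPKM 5, scaling, no trend, no fold limit) called 0 members. Without the 4 libraries, Irf7 and Oasl1 turned to -0.074 and -0.20 for the controls against WT thymus, and that member median moved to -0.06. The replicate block changed no other call. The cause of these shifts was not tested. With 2 libraries a group the fit rests on the spread shared with other groups.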
